A study of Homo sapiens with 22 samples.

Results

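Gefitinib-tolerant PC9 cells were compared after 24 h of gefitinib and after 24 h of vehicle, with 2 libraries for each, which are 4 of the 22 libraries of the series. The 4 libraries were chosen by their labels and not by a measured value. PC9 is an established human lung adenocarcinoma line that carries an activating EGFR mutation and depends on EGFR signalling, and gefitinib is a reversible inhibitor of the EGFR kinase. The labels call the tolerant population drug-tolerant, and do not say how it was derived, whether it is 1 clone or a pool, or what the vehicle was. Both inhibitors of the series are labelled with a dose of 1 mM, a unit in doubt because such inhibitors are commonly given to cells at micromolar doses. For comparison, parental PC9 cells given the same vehicle or gefitinib labels (2 libraries each) and a WZ4002-tolerant PC9 population given vehicle or WZ4002, an irreversible EGFR inhibitor (2 libraries each), were used. All groups share the PC9 background, and the labels name no other genetic change in them. Of the 17165 genes in the table, 14149 reached 1 CPM (the authors' unit of reads relative to library size, used for all levels below) in at least 2 of the 4 tolerant libraries and were counted.

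Active EGFR signals through RAS, RAF and MEK to the kinase ERK, and through PI3K to AKT. ERK raises transcription of its own brakes, such as DUSP and SPRY genes, and of ETV transcription factors, MYC and CCND1. AKT holds FOXO transcription factors out of the nucleus, so that blocking PI3K signalling is known to raise FOXO target genes. Drug-tolerant cells survive an inhibitor that stops or kills most of the population, which makes their response to the same drug a question of which of these outputs still move.

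The 4 tolerant libraries held 32.3 to 39.6 M reads, of which 18.5 to 23.0 M reads fell in the listed genes, and the 22 libraries ranged from 23.6 to 50.4 M reads. Epithelial identity was plain in the tolerant cells: all 8 epithelial markers were counted, and their summed level was 5544 and 5834 CPM in the vehicle libraries and 5458 and 6428 CPM in the gefitinib libraries. Leukocyte markers had 2 of 12 genes listed and a sum of 1.01 and 1.17 CPM with vehicle against 4.05 and 9.80 CPM with gefitinib, nearly all of it CSF1R. Fibroblast markers (6 of 10 listed) summed to 5.6 and 13.0 CPM with vehicle and 12 and 20.4 CPM with gefitinib, nearly all of it COL1A1, while COL1A2 stayed at 0.05 CPM or below. Endothelial markers (5 of 7 listed) summed to 30.1 and 32.7 CPM against 48.0 and 42.6 CPM, nearly all from CDH5 and ESAM. Each p-value rests on a spread between replicates pooled over the 11 groups of all 22 libraries, not on that of the 4 tolerant libraries alone. The labels do not say that replicates were separate cultures, so that variation may be technical. In bulk RNA, fewer cells of a kind and less RNA per cell cannot be told apart.

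Gefitinib changed the expression of about 3 in 10 genes in the tolerant cells, in both directions. Of the 14149 genes, 2236 were higher (15.8%) and 2076 were lower (14.7%) with gefitinib, 4312 in all (30.5%), by limma on log2(CPM + 1) with Benjamini-Hochberg adjusted p under 0.05. A change of at least 2-fold was met by 767 of the higher and 410 of the lower genes. The median change of all counted genes was -0.01 on the log2 scale, and all log2 values below are differences of log2(CPM + 1), which understate the change of genes at low CPM. The 2 gefitinib libraries lay wholly above or below the 2 vehicle libraries for 4308 of the called genes, but also for 10100 (71.4%) of all genes counted. The number of calls rested on 2 libraries: it was 971 (535 higher, 436 lower) without vehicle library 1 and 963 (534 higher, 429 lower) without gefitinib library 2, against 3827 and 4052 without the other libraries. A core of 807 genes, 448 higher and 359 lower, kept the call whichever library was left out.

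Most ERK output genes fell. Of 20 genes on this list, 19 were counted and 17 were lower with gefitinib, with 0 higher, against 14.7% of all genes lower, and the list's median was -1.82. DUSP6, a phosphatase that switches off ERK and is itself induced by it, stood at 28.1 and 26.7 CPM in the vehicle libraries and at 4.18 and 1.11 CPM in the gefitinib libraries (log2 difference -3.10 ± 0.41 SE, limma adjusted p = 0.000293). SPRY4, a Sprouty inhibitor of receptor signalling, went from 27.3 and 25.5 CPM to 2.94 and 1.16 CPM (-3.23 ± 0.44, adjusted p = 0.000293). SPRED1, which restrains RAS, fell from 34.3 and 35.9 CPM to 11.8 and 5.96 CPM (-1.94 ± 0.24, adjusted p = 0.000205). In each of these feedback inhibitors gefitinib library 2 was the lowest of the 4 and neither treated library reached a vehicle library. For comparison, groups did not overlap for 71.4% of all genes. The ETS factor ETV4 fell from 53 and 56.6 CPM to 12.1 and 6.31 CPM (-2.51 ± 0.31, adjusted p = 0.000165), and ETV5 and ETV1 fell with it (-3.14 ± 0.38 and -1.79 ± 0.30). FOSL1, an AP-1 subunit that ERK stabilises, varied most between replicates, at 102 and 41.7 CPM with vehicle and 19.7 and 2.4 CPM with gefitinib (-2.98 ± 0.66, adjusted p = 0.00457). CCND1, which encodes cyclin D1, fell less, from 386 and 428 CPM to 233 and 182 CPM (-0.98 ± 0.27, adjusted p = 0.0138). MYC went from 169 and 119 CPM to 67.6 and 36.9 CPM (-1.49 ± 0.29, adjusted p = 0.00203). The 2 members without a call were SPRY2 (-1.18 ± 0.44, adjusted p = 0.0561) and EPHA4 (-0.54 ± 0.23, adjusted p = 0.0881). The call of FOSL1 was lost without vehicle library 1 or gefitinib library 2 (adjusted p up to 0.101). The call of MYC was lost without gefitinib library 2 (adjusted p up to 0.0528). The call of CCND1 was lost without vehicle library 1, vehicle library 2 or gefitinib library 2 (adjusted p up to 0.152). The count of lower members was 11 without vehicle library 1, 9 without gefitinib library 2, and 15 and 16 without the others.

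**Figure D1:**
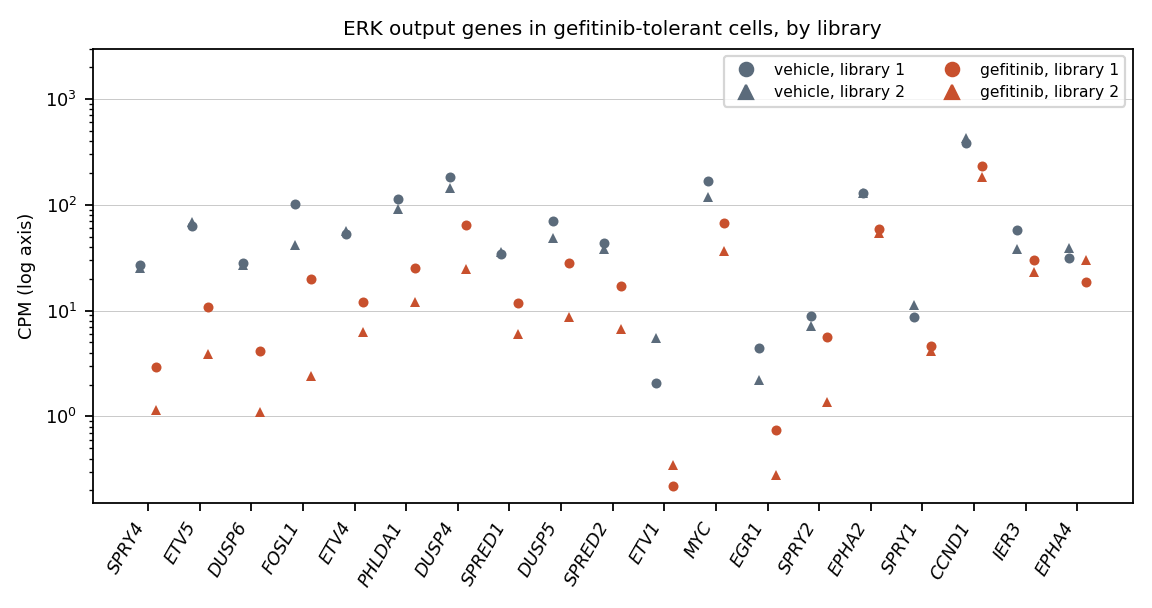
CPM (log axis) of the 19 counted ERK output genes in each of the 4 gefitinib-tolerant libraries, grey for vehicle and orange for gefitinib, circles for library 1 and triangles for library 2, with the 2 treatments side by side for each gene. The gefitinib libraries lie below the vehicle libraries for all 19 genes, including the 2 without a call, while groups that do not overlap are found in 71.4% of all genes counted. DUSP6 goes from 28.1 and 26.7 CPM to 4.18 and 1.11 CPM.

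The same genes were lower in parental cells given gefitinib, where the list's median was -2.85 and 18 of 19 fell. Of all 14149 genes, 3278 fell and 3257 rose in parental cells. The difference between the responses (tolerant minus parental), tested gene by gene, passed for 5 members, all with the smaller fall in tolerant cells: DUSP6 (3.22 ± 0.59, adjusted p = 0.0101), ETV5 (2.76 ± 0.54, adjusted p = 0.0155), DUSP4 (2.46 ± 0.46, adjusted p = 0.011), ETV4 (2.38 ± 0.43, adjusted p = 0.01) and IER3 (2.07 ± 0.41, adjusted p = 0.0168). The tolerant cells began from a lower level for some of these genes: with vehicle, DUSP6 was at 28.1 and 26.7 CPM in tolerant and 110.3 and 103 CPM in parental libraries. With gefitinib, DUSP6 was at 4.18 and 1.11 CPM in tolerant and 0.34 and 0.35 CPM in parental libraries. IER3, an early response gene, was at 58.2 and 38.5 CPM with vehicle and 30.2 and 23.2 CPM with gefitinib in tolerant cells, and at 41.7 and 41.6 and 4.78 and 4.73 CPM in parental cells. Each of the 5 differences lost its call in at least 1 of the 8 leave-one-out fits, with adjusted p up to 0.0878 for IER3, and that of DUSP6 was lost in a limma-voom fit (adjusted p = 0.0759).

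Among the EGFR family, the drug's own target EGFR was lower while its partners ERBB2 and ERBB3 were higher. EGFR, the receptor that gefitinib inhibits, stood at 1398 and 1136 CPM with vehicle and 791 and 590.0 CPM with gefitinib (-0.88 ± 0.24, adjusted p = 0.0147). ERBB3, a receptor that lacks strong kinase activity and couples its partners to PI3K, rose from 31.3 and 51.7 CPM to 79 and 125 CPM (1.28 ± 0.26, adjusted p = 0.00246). ERBB2, its usual partner, rose from 58 and 78.3 CPM to 99.8 and 137 CPM (0.78 ± 0.20, adjusted p = 0.00951). For all 3 receptors the treated and vehicle libraries did not overlap, as for 71.4% of all genes. Of the ligands, HBEGF fell from 59.1 and 25.1 CPM to 8.48 and 4.04 CPM (-2.52 ± 0.51, adjusted p = 0.00269), while TGFA (-0.33 ± 0.28, adjusted p = 0.397) and EREG (-1.09 ± 0.48, adjusted p = 0.101) did not pass the test. ERRFI1, a feedback inhibitor that binds the EGFR kinase, fell from 121 and 97.7 CPM to 51.4 and 23.2 CPM (-1.63 ± 0.30, adjusted p = 0.00159). In all, 3 of 13 counted members rose and 4 fell, against 15.8% higher and 14.7% lower over all genes, with a median of -0.14. The count became 0 higher and 1 lower without vehicle library 1 or gefitinib library 2.

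Of 16 other receptor tyrosine kinases and ligands counted, 3 were higher and 4 lower, shares near the 15.8% and 14.7% of all genes, so the counts are no result about the list. The count became 0 higher and 1 lower without vehicle library 1 or gefitinib library 2. INSR, the insulin receptor and a known FOXO target, rose from 10.3 and 13.8 CPM to 22.6 and 27.9 CPM (1.01 ± 0.20, adjusted p = 0.00253). GAS6, the ligand of AXL, rose from 40.4 and 62 CPM to 88 and 118 CPM (1.01 ± 0.35, adjusted p = 0.0389), whereas AXL itself was at 181 and 122 CPM with vehicle and 167 and 133 CPM with gefitinib (0.0 ± 0.27, adjusted p = 0.995). MET, the hepatocyte growth factor receptor, fell from 201 and 217 CPM to 124 and 108 CPM (-0.85 ± 0.21, adjusted p = 0.00884), and ROR1, an orphan receptor for WNT5A, from 41.3 and 28.9 CPM to 16.6 and 8.58 CPM (-1.45 ± 0.28, adjusted p = 0.00196). The calls of EGFR, ERBB2, ERBB3, HBEGF, INSR, GAS6 and MET were lost without vehicle library 1 or gefitinib library 2 (adjusted p up to 0.178, 0.154, 0.0636, 0.0655, 0.0573, 0.314 and 0.101). The call of ROR1 was lost without gefitinib library 2 (adjusted p up to 0.0512). In a fit without the filter on low values, GAS6 also missed the threshold (adjusted p up to 0.0522).

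Ribosome production genes fell as a group, where 14.7% of all genes were lower. All 19 counted members of the list of MYC targets and ribosome biogenesis genes were lower with gefitinib, with a median of -1.17, and 7 of the 19 kept the call whichever library was left out. POLR1B, a core subunit of RNA polymerase I, went from 69.9 and 55.4 CPM to 22.7 and 19.3 CPM (-1.53 ± 0.18, adjusted p = 0.000159). NOP56, a core protein of the particles that methylate ribosomal RNA, went from 177 and 130.2 CPM to 70.6 and 46.7 CPM (-1.39 ± 0.23, adjusted p = 0.000956). NOLC1, a nucleolar chaperone, fell from 166 and 119.5 CPM to 68.6 and 47.3 CPM (-1.29 ± 0.21, adjusted p = 0.000804). In these 3 genes both treated libraries lay at less than the lower vehicle library, and vehicle library 1 was the highest of the 4. Among all genes, groups did not overlap for 71.4%. The smallest change of the list was that of NPM1, the abundant nucleolar protein nucleophosmin (-0.66 ± 0.19, adjusted p = 0.0188). The ribosomal proteins themselves were almost level, with a median of -0.11 on the log2 scale. Of 75 counted genes, 3 were lower and 0 higher, against 14.7% lower and 15.8% higher over all genes. Those 3, RPL9 (-0.71 ± 0.22), RPS26 (-0.64 ± 0.18) and RPS3A (-0.50 ± 0.16), missed the threshold in a fit of the compared libraries alone, and reads of ribosomal protein genes can be split among near-identical processed copies. The median of the ribosome production list was -1.33 in parental cells, and 0 of its genes differed between the responses by limma, by limma-voom or at an unadjusted p under 0.05. The call of NPM1 was lost without vehicle library 1 or gefitinib library 2 (adjusted p up to 0.239). In a fit of the compared libraries alone, NPM1 also missed the threshold (adjusted p up to 0.0626). Without vehicle library 1 or without gefitinib library 2, 7 of the 19 remained lower.

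Part of the DNA replication genes were lower, and mitotic genes did not pass the test. Of 25 replication genes, all counted, 12 were lower and 0 higher, against 14.7% lower and 15.8% higher over all genes, with a median of -0.95. CDC6, which loads the MCM helicase on origins, went from 79.3 and 66.5 CPM to 33 and 20.2 CPM (-1.46 ± 0.35, adjusted p = 0.00698). GINS3, part of the active helicase, went from 20.0 and 17.1 CPM to 10.4 and 6.97 CPM (-1.03 ± 0.20, adjusted p = 0.00232). PCNA, the sliding clamp of DNA polymerases, was at 155 and 138 CPM with vehicle and 90.5 and 63 CPM with gefitinib (-0.95 ± 0.32, adjusted p = 0.0395). None of the 24 mitotic genes passed (0 by limma, 0 by limma-voom and 0 at an unadjusted p under 0.05), with a median of -0.67, and 20 of them had groups that did not overlap, which was also so for 71.4% of all genes. MKI67, a proliferation marker, stood at 223 and 235 CPM and 163 and 100.2 CPM (-0.84 ± 0.66, adjusted p = 0.354), and CCNB1, cyclin B1, at 198 and 189.8 CPM and 160.3 and 96.1 CPM (-0.64 ± 0.58, adjusted p = 0.424). In a fit of the 4 compared libraries and no others, 20 replication genes and 9 mitotic genes were lower. The number of replication genes called was 1 without vehicle library 1 and 0 without gefitinib library 2, so these calls rested on both libraries.

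In parental cells given gefitinib, all 25 replication genes and all 24 mitotic genes were lower, with medians of -2.29 and -2.45. Of all 14149 genes, 3278 were lower in parental cells. The difference of responses passed for 4 replication genes, each with the smaller fall in tolerant cells: CDC6 (2.22 ± 0.49, adjusted p = 0.0278), GINS4 (1.82 ± 0.38, adjusted p = 0.0213), RFC4 (1.41 ± 0.33, adjusted p = 0.0357) and MCM7 (1.26 ± 0.30, adjusted p = 0.0444). It passed for 0 mitotic genes by limma or limma-voom, with 11 at an unadjusted p under 0.05, and single values such as CDK1 (2.39 ± 0.92, adjusted p = 0.213) carried wide errors. All 4 calls were lost without vehicle or gefitinib library 1 of either population or without tolerant vehicle library 2, and those of RFC4 and MCM7 also without parental gefitinib library 2, with adjusted p up to 0.212 for MCM7. By limma-voom, CDC6, RFC4 and MCM7 missed the threshold (adjusted p = 0.0682, 0.0641 and 0.0641). Among genes that gate entry into S phase, 3 of 21 were higher and 7 were lower, against 15.8% higher and 14.7% lower over all genes. The count became 1 higher and 0 lower without vehicle library 1 or gefitinib library 2. CDKN1B, which encodes the CDK inhibitor p27, rose from 21.8 and 25.7 CPM to 42.5 and 43 CPM (0.83 ± 0.13, adjusted p = 0.000602). CCNG2, a cyclin linked to cell cycle exit, rose from 8.07 and 21.5 CPM to 35.6 and 51.8 CPM (1.62 ± 0.34, adjusted p = 0.00328), and CCNE1, cyclin E1, fell from 31.6 and 19.7 CPM to 11.3 and 7.4 CPM (-1.36 ± 0.31, adjusted p = 0.00583). The calls of CCNG2 and CCNE1 were lost without vehicle library 1 or gefitinib library 2 (adjusted p up to 0.0785 and 0.108). The retinoblastoma relative RBL2, which acts in the repressor complex of resting cells, rose as well (0.73 ± 0.16, adjusted p = 0.00411), and CDKN1A, which encodes p21, did not pass (-0.94 ± 0.39, adjusted p = 0.0819). The call of RBL2 was lost without vehicle library 1 or gefitinib library 2 (adjusted p up to 0.0917).

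Genes that supply amino acids were lowered more often in parental than in tolerant cells. ATF4 is a transcription factor whose translation rises when amino acids are short or when the integrated stress response is on, and it drives genes of amino acid synthesis, uptake and tRNA charging. Across 4 lists (ATF4 and integrated stress, serine and one-carbon synthesis, amino acid transporters, cytosolic aminoacyl-tRNA synthetases) 53 genes were counted. In parental cells gefitinib lowered 36 of the 53 and raised 4, with a median of -0.92, and in tolerant cells it lowered 16 and raised 3, with a median of -0.20. Calls were more frequent in parental cells over all 14149 genes too, with 3278 lower and 3257 higher against 2076 and 2236 in tolerant cells. The serine list fell in part in tolerant cells, with 4 of 9 lower and a median of -0.57, against 8 of 9 and -1.59 in parental cells. The difference of responses was called for 264 of all 14149 genes (1.87%) and for 15 of these 53, each with the higher value in tolerant cells, and 8 of the 15 kept the call in all 8 leave-one-out fits.

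ASNS, asparagine synthetase, was at 13.8 and 11.2 CPM with vehicle and 15.2 and 18.5 CPM with gefitinib in tolerant cells, and at 104 and 79.2 CPM and 4.48 and 4.73 CPM in parental cells (difference of responses 4.43 ± 0.60, adjusted p = 0.00165). In tolerant cells ASNS did not pass the test (0.40 ± 0.42, adjusted p = 0.5). PSAT1, the transaminase of serine synthesis, was at 53.5 and 49.9 CPM and 34.3 and 29.7 CPM in tolerant and 210.2 and 187 CPM and 9.6 and 12.6 CPM in parental cells (3.38 ± 0.42, adjusted p = 0.00138). SLC7A5, the large neutral amino acid transporter that imports leucine, was at 260.1 and 161 CPM and 282 and 174 CPM in tolerant cells against 462 and 377 CPM and 37.8 and 68.2 CPM in parental cells (3.13 ± 0.52, adjusted p = 0.00571). For these 3 genes the parental libraries separated widely by treatment. The tolerant libraries overlapped for SLC7A5 and lay close for ASNS, while PSAT1 was lower with gefitinib (-0.68) without passing the test. SLC1A4, which carries alanine and serine, went from 7.92 and 7.58 CPM to 9.75 and 10.2 CPM in tolerant cells and from 27 and 20.5 CPM to 2.71 and 3.48 CPM in parental cells (2.91 ± 0.30, adjusted p = 0.000635). MTHFD2, a mitochondrial folate enzyme, fell in both, from 81.3 and 60.9 CPM to 43.6 and 36.2 CPM in tolerant cells (-0.81 ± 0.24, adjusted p = 0.0193) and from 172 and 133 CPM to 18.4 and 17.7 CPM in parental cells, and the falls differed (2.19 ± 0.34, adjusted p = 0.00386). CHAC1, which breaks down glutathione and is a sensitive ATF4 target, was at 1.49 and 1.45 CPM and 2.07 and 2.4 CPM in tolerant and 14.4 and 8.73 CPM and 0.25 and 0.84 CPM in parental cells (3.40 ± 0.51, adjusted p = 0.00322). ATF4 mRNA itself moved little, at 116 and 98.7 CPM and 121 and 132 CPM in tolerant cells (0.24 ± 0.13, adjusted p = 0.185), and its difference of responses (0.78 ± 0.18, adjusted p = 0.0398) passed in 1 of 8 leave-one-out fits. With vehicle, ASNS, PSAT1, CHAC1 and SLC1A4 were lower in both tolerant libraries than in either parental library, so the populations differed in starting level as well as in response. The call of MTHFD2 was lost without vehicle library 1 or gefitinib library 2 (adjusted p up to 0.209).

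**Figure D2:**
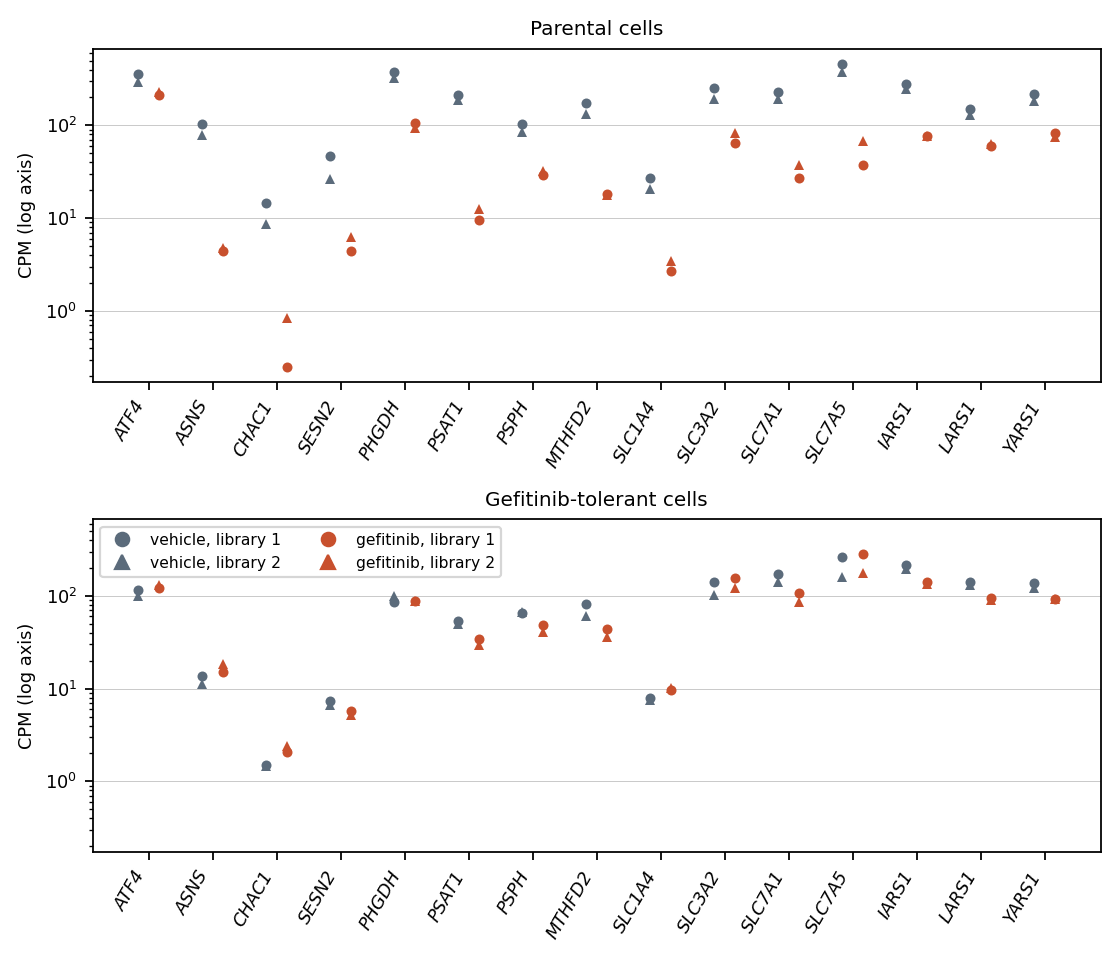
CPM (log axis) of 15 amino acid supply genes by library, parental PC9 in the upper panel and gefitinib-tolerant PC9 in the lower panel, grey for vehicle and orange for gefitinib, circles for library 1 and triangles for library 2. The 15 are those of the 53 counted list members whose difference of responses was called, and the other members are not shown. A contrast between the panels is therefore set by the choice of genes. ASNS spans 104 and 79.2 CPM to 4.48 and 4.73 CPM in parental cells and 13.8 and 11.2 CPM to 15.2 and 18.5 CPM in tolerant cells.

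The other 2 differences that held in every leave-one-out fit on these lists were those of SLC7A1, the cationic amino acid transporter (1.99 ± 0.32, adjusted p = 0.00483), and IARS1, isoleucyl-tRNA synthetase (1.19 ± 0.21, adjusted p = 0.00757). Within tolerant cells 9 of 16 tRNA synthetases fell and 0 rose, with a median of -0.51, and the count became 4 lower without vehicle library 1 or gefitinib library 2. The shares over all genes were 14.7% lower and 15.8% higher. VARS1, valyl-tRNA synthetase, fell from 140.4 and 124 CPM to 69.3 and 56.5 CPM (-1.06 ± 0.14, adjusted p = 0.000293), and FARSB, a phenylalanyl-tRNA synthetase subunit, from 199.8 and 144 CPM to 87.7 and 55.2 CPM (-1.27 ± 0.23, adjusted p = 0.00147). SLC7A7, a transporter subunit that exports cationic amino acids, was the single transporter that rose, from 6.19 and 7.72 CPM to 72.7 and 78.7 CPM (3.28 ± 0.52, adjusted p = 0.000695), and it rose as much in parental cells (3.27). NUPR1, a stress-induced nuclear protein, rose from 0.51 and 2.19 CPM to 10.9 and 29.2 CPM (3.11 ± 0.60, adjusted p = 0.00216), with gefitinib library 2 the highest. PPP1R15A, which directs dephosphorylation of eIF2, rose from 34.2 and 26.5 CPM to 50.3 and 57.3 CPM (0.81 ± 0.27, adjusted p = 0.0324). STC2 and VEGFA were the 2 members of the ATF4 list that fell (-1.34 ± 0.34 and -0.85 ± 0.31). The calls of PPP1R15A and VEGFA were lost without any 1 of the 4 libraries (adjusted p up to 0.201 and 0.273). The call of NUPR1 was lost without gefitinib library 2 (adjusted p up to 0.0523). The call of STC2 was lost without vehicle library 1 or gefitinib library 2 (adjusted p up to 0.13). In a fit without the filter on low values or a limma-voom fit, VEGFA also missed the threshold (adjusted p up to 0.063).

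The promoter of CHAC1 is shown because it is the ATF4-list promoter that holds the composite ATF4 motif, searched as TGATGCAA and on the other strand as TTGCATCA. The stretch is chr15:40953231-40953330 of GRCh38.p14 on the plus strand, 240 to 141 bases before the start, from RefSeq, with the match in capitals.
CHAC1: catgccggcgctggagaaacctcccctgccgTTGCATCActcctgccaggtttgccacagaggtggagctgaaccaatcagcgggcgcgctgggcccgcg
In windows of 300 bases around the start, the motif was in 1 of 14 promoters of the ATF4 list, 1 of 6 of the serine list (MTHFD1L), 0 of 11 of the transporters and 5 of 12 of the tRNA synthetases (AARS1, CARS1, IARS1, NARS1 and TARS1). It was in 0.923% of all 27305 promoters and in 0.466% of the 10081 promoters of counted genes. A match is a description of the letters in this window, not a bound site.

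Of the genes that FOXO factors are known to raise, and brakes of PI3K, fewer fell than rose. Of 21 genes on this list, 20 were counted, 9 rose and 2 fell, and 9 did not pass, against 15.8% higher and 14.7% lower over all genes. The list's median was 0.57 against 0.95 in parental cells, and the count became 5 higher and 1 lower without vehicle library 1, against 5 higher and 0 lower without gefitinib library 2. PIK3IP1, a membrane protein that restrains PI3K, rose from 6.4 and 16 CPM to 61.8 and 124 CPM (2.98 ± 0.46, adjusted p = 0.000606). DEPP1, an autophagy regulator induced by FOXO, rose from 2.17 and 4.25 CPM to 16.4 and 26.7 CPM (2.43 ± 0.36, adjusted p = 0.000532). CITED2, a coactivator and FOXO target, rose from 70.5 and 79.4 CPM to 227 and 248 CPM (1.65 ± 0.21, adjusted p = 0.000222). All 3 had treated libraries above both vehicle libraries and kept the call whichever library was left out. Groups that do not overlap were found for 71.4% of all genes. FOXO4 rose as well (1.33 ± 0.23, adjusted p = 0.00116), whereas FOXO1 (0.31 ± 0.20, adjusted p = 0.237) and FOXO3 (0.26 ± 0.17, adjusted p = 0.267) did not pass. The 2 that fell were the insulin receptor substrates, IRS1 from 40.4 and 55.6 CPM to 20.4 and 17.7 CPM (-1.28 ± 0.29, adjusted p = 0.00504) and IRS2 less so (-0.52 ± 0.14). The letters GTAAACA, a FOXO motif, were found on either strand in 2 of 18 promoters of this list, those of DEPP1 and FOXO4, and in 3.41% of all promoters. The call of IRS1 was lost without gefitinib library 2 (adjusted p up to 0.0642). The call of IRS2 was lost without vehicle library 1, vehicle library 2 or gefitinib library 2 (adjusted p up to 0.0813).

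Among cell death genes, some BH3-only members rose and some survival genes fell. BH3-only proteins trigger the mitochondrial death pathway by engaging BCL2 relatives, and 4 of the 8 rose with 0 lower, against 15.8% higher over all genes. The count became 1 higher without vehicle library 1, against 2 higher without gefitinib library 2. BMF went from 1.61 and 4.12 CPM to 22.7 and 42.8 CPM (3.14 ± 0.48, adjusted p = 0.000601). BCL2L11, which encodes BIM, a mediator of death by EGFR inhibitors in sensitive cells, rose from 21.1 and 21.2 CPM to 37.5 and 36.3 CPM (0.77 ± 0.18, adjusted p = 0.0058). BBC3, which encodes PUMA, rose from 1.49 and 3.25 CPM to 6.68 and 6.64 CPM (1.24 ± 0.28, adjusted p = 0.00553), and HRK from 1.85 and 3.99 CPM to 6.19 and 12.1 CPM (1.36 ± 0.35, adjusted p = 0.01). PMAIP1, which encodes NOXA, was at 17.6 and 15.1 CPM and 25.8 and 20.4 CPM and did not pass (0.47 ± 0.23, adjusted p = 0.145). On the survival side, BCL2L1, which encodes BCL-XL, fell from 149 and 147 CPM to 86.7 and 90.8 CPM (-0.73 ± 0.16, adjusted p = 0.00458), and BCL2 fell from 6.37 and 6.18 CPM to 4.18 and 1.99 CPM (-0.89 ± 0.23, adjusted p = 0.0117). MCL1 was at 145 and 143 CPM and 115 and 122 CPM in tolerant cells (-0.29 ± 0.13, adjusted p = 0.107) and at 134 and 127 CPM and 241 and 192 CPM in parental cells, where it rose, and the responses differed (-1.01 ± 0.18, adjusted p = 0.01). That difference lost its call without parental gefitinib library 1 (adjusted p = 0.0619).

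Of the TRAIL and death receptor genes, 2 of 14 were higher and 4 were lower, against 15.8% higher and 14.7% lower over all genes, and the count became 0 higher and 0 lower without vehicle library 1 or gefitinib library 2. TNFSF10, the death ligand TRAIL, was at 0.48 and 0.63 CPM with vehicle and 2.72 and 5.88 CPM with gefitinib in tolerant cells (1.70 ± 0.37, adjusted p = 0.00421), and at 2.13 and 4.47 CPM and 156 and 107 CPM in parental cells. In tolerant cells it was counted only through its gefitinib libraries, so a fall could not have been called. The 2 responses differed (-3.27 ± 0.53, adjusted p = 0.00501) in all 8 leave-one-out fits, though not in a limma-voom fit (adjusted p = 0.211). Its receptors fell, TNFRSF10A from 20.8 and 10.8 CPM to 7.33 and 3.03 CPM (-1.47 ± 0.30, adjusted p = 0.00286) and TNFRSF10B from 48 and 41.6 CPM to 28.8 and 22.9 CPM (-0.77 ± 0.17, adjusted p = 0.00428). CFLAR, an inhibitor of caspase-8 activation, rose from 25.1 and 25.6 CPM to 36.6 and 36 CPM (0.50 ± 0.15, adjusted p = 0.0219). The calls of BCL2L11, BBC3, HRK, BCL2, TNFSF10, TNFRSF10A and TNFRSF10B were lost without vehicle library 1 or gefitinib library 2 (adjusted p up to 0.0573, 0.116, 0.168, 0.222, 0.0883, 0.0723 and 0.0813). The call of BCL2L1 was lost without vehicle library 1 (adjusted p up to 0.0511). The call of CFLAR was lost without any 1 of the 4 libraries (adjusted p up to 0.134). In a fit of the compared libraries alone, BCL2 and TNFRSF10A also missed the threshold (adjusted p up to 0.0666 and 0.0524).

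Promoters of 3 genes that rose in the interferon and antigen presentation lists are shown first, because they hold the interferon-stimulated response element (ISRE), the site read by STAT and IRF factors. The letters searched were GAAANNGAA, or TTCNNTTTC on the other strand, and matches are in capitals. IFIT1 is chr10:89392483-89392582 on the plus strand, 140 to 41 bases before the start. IFIH1 is chr2:162318765-162318864 on the minus strand, 180 to 81 bases before the start, and TAP1 is chr6:32853755-32853854 on the minus strand, 150 to 51 bases before the start, all from RefSeq in GRCh38.p14.
IFIT1: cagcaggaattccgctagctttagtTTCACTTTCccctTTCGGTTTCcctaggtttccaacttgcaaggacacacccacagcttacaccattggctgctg
IFIH1: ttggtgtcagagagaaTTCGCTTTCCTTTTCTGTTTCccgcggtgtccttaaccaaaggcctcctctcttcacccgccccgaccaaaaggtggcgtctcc
TAP1: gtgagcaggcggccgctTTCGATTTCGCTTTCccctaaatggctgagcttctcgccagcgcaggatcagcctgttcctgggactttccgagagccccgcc
Capitals hold 2 matches in IFIT1, 3 in IFIH1 and 2 in TAP1, some of which overlap. Over windows of 300 bases the letters were in 13 of 21 interferon list promoters and in 7 of 13 promoters of the MHC class I list, against 8.29% of all promoters and 6.15% of those of counted genes. A match describes letters in the window and is no evidence of binding.

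Interferon-stimulated genes were higher with gefitinib, as far as they were called, where 15.8% of all genes were higher and 14.7% lower. Of 38 genes on the list, 27 were counted, 19 rose and 0 fell, with a median of 1.06 against -0.01 for all genes, and 10 of the 19 kept the call whichever library was left out. The count became 10 higher without vehicle library 1 or gefitinib library 2. IFIT1, a sensor of foreign RNA caps, was at 0.86 and 2.03 CPM with vehicle and 5.88 and 8.61 CPM with gefitinib (1.78 ± 0.31, adjusted p = 0.00108). IFIT2 rose from 12.9 and 15.5 CPM to 40.5 and 48.6 CPM (1.59 ± 0.24, adjusted p = 0.000602). IFIH1, the double-stranded RNA sensor MDA5, rose from 4.79 and 4.57 CPM to 9.59 and 10.7 CPM (0.97 ± 0.14, adjusted p = 0.000497). Levels were low for many members. In all 3 genes both treated libraries lay above both vehicle libraries, while groups did not overlap for 71.4% of all genes. STAT2 rose from 15.8 and 24.9 CPM to 40.4 and 77 CPM (1.44 ± 0.27, adjusted p = 0.00153). IRF1, a transcription factor of the interferon response, rose from 10.5 and 8.61 CPM to 24.8 and 21.1 CPM (1.18 ± 0.23, adjusted p = 0.00191). USP18, a negative regulator of interferon signalling, did not pass (-0.08 ± 0.17, adjusted p = 0.74). The parental list median was 0.74 with 15 higher and 1 lower, where 3257 of all 14149 genes were higher and 3278 lower. Between the responses, 0 members differed by limma or limma-voom, with 8 at an unadjusted p under 0.05. Only 2 of 12 leukocyte markers were listed, and they summed to 1.01 and 1.17 CPM with vehicle and 4.05 and 9.80 CPM with gefitinib. Nearly all of that was the single gene CSF1R, with CD14 at 1.19 CPM or below, so the sum does not describe a cell type. Any link to the interferon list was not tested.

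Genes of MHC class I antigen presentation were mostly higher with gefitinib. All 17 were counted, 15 rose and 0 fell, and the count became 8 higher without vehicle library 1, against 5 higher without gefitinib library 2. Over all genes, 15.8% were higher and 14.7% lower. The list had a median of 0.80, and 0.99 in parental cells. PSMB9, a subunit of the immunoproteasome that cuts peptides, rose from 1.94 and 1.61 CPM to 12.1 and 7.6 CPM (1.94 ± 0.29, adjusted p = 0.000506). TAP1, one chain of the transporter that carries peptides into the endoplasmic reticulum, rose from 9.2 and 7.74 CPM to 25.9 and 17.1 CPM (1.22 ± 0.26, adjusted p = 0.00377), while its partner TAP2 did not pass (-0.43 ± 0.20, adjusted p = 0.119). TAPBP, the loading factor tapasin, rose from 105 and 125 CPM to 213 and 245 CPM (0.99 ± 0.15, adjusted p = 0.000488). These 3 kept the call whichever library was left out. B2M, the shared light chain, rose from 299 and 332 CPM to 475 and 545 CPM (0.69 ± 0.16, adjusted p = 0.00653). Of the heavy chains, HLA-E rose from 69.9 and 78.2 CPM to 127 and 162 CPM (0.95 ± 0.20, adjusted p = 0.00315), and HLA-B, HLA-C and HLA-F rose too (0.89 ± 0.28, 0.60 ± 0.16 and 1.42 ± 0.21), although reads of these closely related genes can be split. NLRC5, the transactivator of class I genes, rose from 9.71 and 9.22 CPM to 18.4 and 16.5 CPM (0.81 ± 0.20, adjusted p = 0.00814). The calls of B2M, HLA-B, HLA-C, HLA-E and NLRC5 were lost without vehicle library 1 or gefitinib library 2 (adjusted p up to 0.0905, 0.198, 0.154, 0.0642 and 0.0604).

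**Figure D3:**
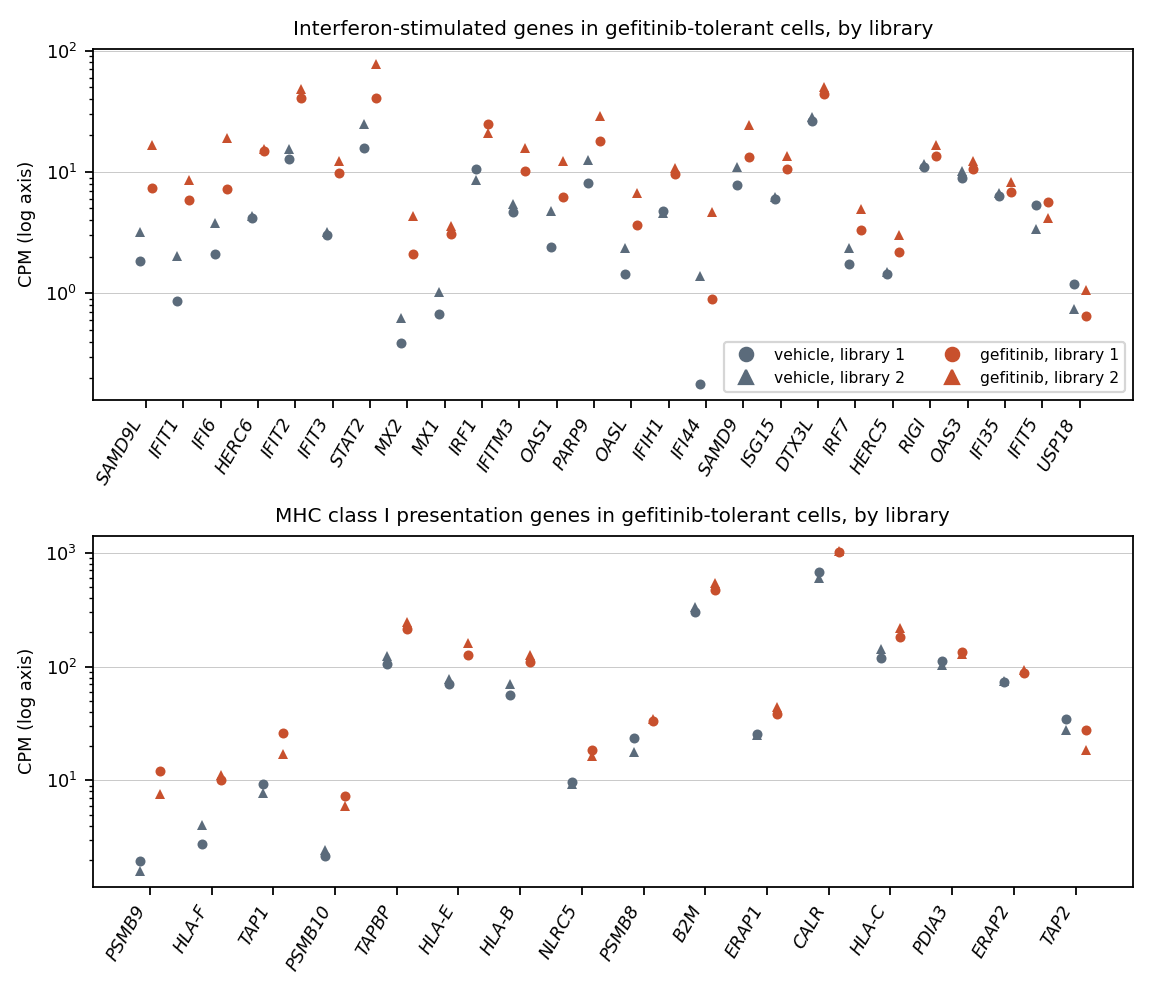
CPM (log axis) by library of interferon-stimulated genes (upper panel) and MHC class I presentation genes (lower panel) in gefitinib-tolerant cells, grey for vehicle and orange for gefitinib, circles for library 1 and triangles for library 2. Treated libraries lie above vehicle libraries for most genes, for example PSMB9 at 1.94 and 1.61 CPM and 12.1 and 7.6 CPM, and overlap for USP18 at 1.19 and 0.74 CPM and 0.65 and 1.06 CPM. Groups that do not overlap, in either direction, are found in 71.4% of all genes counted.

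Checkpoint ligands, which restrain lymphocytes, moved in both directions, 3 higher and 4 lower of 10, against 15.8% higher and 14.7% lower over all genes, and the count became 0 higher and 0 lower without vehicle library 1 or gefitinib library 2. CD274, which encodes PD-L1, fell from 14.8 and 9.51 CPM to 4.24 and 2.3 CPM (-1.63 ± 0.34, adjusted p = 0.00309), and PDCD1LG2, which encodes PD-L2, fell from 5.63 and 4.33 CPM to 2.91 and 0.93 CPM (-1.11 ± 0.31, adjusted p = 0.0139). VTCN1, which encodes B7-H4, rose from 2.02 and 4.6 CPM to 13.2 and 37.1 CPM (2.50 ± 0.53, adjusted p = 0.0034), and VSIR, which encodes VISTA, from 39.7 and 54.2 CPM to 94.4 and 123 CPM (1.20 ± 0.28, adjusted p = 0.00629). CD274 and the class I genes moved in opposite directions in the same libraries. NT5E, the ecto-enzyme CD73, fell in tolerant cells (-0.97 ± 0.27, adjusted p = 0.0141) and rose in parental cells (0.72 ± 0.27), with a difference of -1.69 ± 0.38, adjusted p = 0.0278 that passed in 2 of 8 leave-one-out fits. The calls of CD274, PDCD1LG2, VTCN1, VSIR and NT5E were lost without vehicle library 1 or gefitinib library 2 (adjusted p up to 0.0657, 0.25, 0.08, 0.0996 and 0.119). In a fit of the compared libraries alone, PDCD1LG2 also missed the threshold (adjusted p up to 0.0628).

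Some genes of secretory and surface epithelium rose, while most of those listed did not pass. Of 15 counted mucin and secretory genes, 6 rose, 0 fell and 9 did not pass, against 15.8% higher over all genes, with a median of 0.42. MUC1, a membrane mucin, rose from 5.69 and 7.13 CPM to 28.5 and 36.8 CPM (2.18 ± 0.33, adjusted p = 0.000577), and MUC20 from 18.4 and 37.2 CPM to 144 and 289.9 CPM (2.91 ± 0.42, adjusted p = 0.000413). AQP3, a channel for water and glycerol, rose from 2.08 and 2.25 CPM to 39 and 35.7 CPM (3.60 ± 0.60, adjusted p = 0.000905). ALPP, placental alkaline phosphatase, had the largest rise of the named genes, from 23.9 and 34.7 CPM to 528 and 735 CPM (4.39 ± 0.55, adjusted p = 0.00018), and its near-identical neighbour ALPG followed (4.17 ± 0.44), so reads of the pair cannot be fully assigned. Secretory markers such as LCN2 (0.30 ± 0.25, adjusted p = 0.39) and SLPI (0.23 ± 0.25, adjusted p = 0.519) did not pass. Among 13 keratins 4 rose and 0 fell, namely KRT4 (2.63 ± 0.54), KRT13 (0.91 ± 0.26), KRT15 (1.39 ± 0.40) and KRT16, and the count became 1 higher without vehicle library 1, against 0 higher without gefitinib library 2. KRT4 was at 0.21 and 0.21 CPM with vehicle and 4.21 and 9.82 CPM with gefitinib. Like ALPG, it was counted only through its gefitinib libraries, so a fall could not have been called. KRT16, a keratin of stressed squamous epithelium, rose from 18.9 and 27.2 CPM to 52.2 and 101 CPM (1.63 ± 0.39, adjusted p = 0.0071), while the simple keratins KRT8 (0.28 ± 0.16, adjusted p = 0.193) and KRT18 (-0.10 ± 0.16, adjusted p = 0.681) did not pass. In parental cells 9 keratins rose, with a median of 1.22 against 0.28 here, and 3257 of all 14149 genes rose. KRT6A, KRT5, KRT8 and KRT4 had a lower response in tolerant cells, of which KRT6A (-1.97 ± 0.31, adjusted p = 0.00404) held in all 8 leave-one-out fits. The differences of KRT5, KRT8 and KRT4 passed in 1, 0 and 2 of the 8, and those of KRT5 and KRT4 missed the threshold by limma-voom (adjusted p = 0.0641 and 0.713). The calls of KRT13, KRT15 and KRT16 were lost without vehicle library 1 or gefitinib library 2 (adjusted p up to 0.202, 0.198 and 0.131). The call of KRT4 was lost without gefitinib library 2 (adjusted p up to 0.0642).

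Some junction genes rose and several integrins fell. Of 26 junction genes, 9 rose, 1 (CLDN2) fell and 16 did not pass, against 15.8% higher and 14.7% lower over all genes, with a median of 0.19, and the count became 4 higher and 0 lower without vehicle library 1 or gefitinib library 2. CLDN3, a claudin, rose from 2.17 and 2.06 CPM to 9.59 and 9.49 CPM (1.76 ± 0.28, adjusted p = 0.000692), and TJP3, a junction scaffold, from 6.43 and 13.6 CPM to 25.8 and 37.6 CPM (1.62 ± 0.30, adjusted p = 0.00176). CDH1, E-cadherin, rose less, from 161 and 158 CPM to 239 and 213 CPM (0.50 ± 0.17, adjusted p = 0.0365), and VIM, the mesenchymal filament vimentin, was at 8.42 and 9.12 CPM and 3.9 and 4.72 CPM and did not pass (-0.88 ± 0.46, adjusted p = 0.162). Of 7 counted mesenchymal genes, limma called 0 and limma-voom 1, with 1 at an unadjusted p under 0.05. Integrins and hemidesmosome genes, which hold epithelium to matrix, gave 7 lower and 1 higher of 19, and the count became 3 lower without vehicle library 1, against 2 lower without gefitinib library 2. ITGA2, the collagen-binding chain, fell from 503 and 480.2 CPM to 152 and 79.8 CPM (-2.15 ± 0.24, adjusted p = 8.74e-05), and ITGA6, the laminin-binding chain of hemidesmosomes, from 921 and 720.0 CPM to 207 and 103 CPM (-2.47 ± 0.35, adjusted p = 0.000429). ITGB8, which binds latent TGF-beta, was the single member that rose, from 29.1 and 35.6 CPM to 94.2 and 70.3 CPM (1.31 ± 0.26, adjusted p = 0.00252). Both treated libraries lay apart from both vehicle libraries in these 3 integrins, and groups also did not overlap for 71.4% of all genes. The call of CDH1 was lost without any 1 of the 4 libraries (adjusted p up to 0.156).

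Of 39 lysosome and autophagy genes 14 rose, 1 fell and 24 did not pass, against 15.8% higher and 14.7% lower over all genes, with a median of 0.34 and of 0.55 in parental cells. CTSH, a lysosomal protease, rose from 73.6 and 118 CPM to 198 and 383 CPM (1.55 ± 0.36, adjusted p = 0.00545), and PSAP, the precursor of sphingolipid activators, from 794 and 1025 CPM to 1294 and 2027 CPM (0.84 ± 0.23, adjusted p = 0.0125). ATP6V1B1, a proton pump subunit otherwise typical of acid-secreting cells, rose from 0.48 and 0.5 CPM to 9.59 and 23.8 CPM (3.44 ± 0.50, adjusted p = 0.000429). It too was counted only through its gefitinib libraries. TFEB, the factor that drives lysosome genes, did not pass (-0.13 ± 0.39, adjusted p = 0.827). Of glycolysis and hypoxia genes, 6 of 24 fell and 2 rose, and the count became 0 higher and 2 lower without vehicle library 1 or gefitinib library 2. HK1, hexokinase 1, fell from 157 and 144 CPM to 85.7 and 76.9 CPM (-0.88 ± 0.11, adjusted p = 0.000232), while the glucose transporter SLC2A3 rose from 44.1 and 106 CPM to 158 and 289 CPM (1.63 ± 0.56, adjusted p = 0.0392). HK2 fell in tolerant cells (-1.05 ± 0.25, adjusted p = 0.00698) and did not pass in parental cells (0.60 ± 0.25), a difference of -1.64 ± 0.36, adjusted p = 0.0252 that passed in 2 of 8 leave-one-out fits. Respiratory chain subunits were nearly level, with 1 of 30 lower and a median of -0.10. Cholesterol synthesis genes gave 4 higher and 0 lower of 21, with a median of 0.67, and 17 were higher in a fit of the compared libraries alone. INSIG1, the sterol sensor partner, rose from 18.7 and 25.6 CPM to 78.8 and 79.7 CPM (1.81 ± 0.38, adjusted p = 0.00315). The calls of CTSH, PSAP, SLC2A3 and HK2 were lost without vehicle library 1 or gefitinib library 2 (adjusted p up to 0.113, 0.211, 0.362 and 0.119). The call of INSIG1 was lost without vehicle library 1 (adjusted p up to 0.0567). In a fit of the compared libraries alone, PSAP also missed the threshold (adjusted p up to 0.063). In a fit without the filter on low values or a fit with the replicate block, SLC2A3 also missed the threshold (adjusted p up to 0.0548). The cholesterol count was 0 without vehicle library 1 and 1 without gefitinib library 2, and the lysosome count of higher genes was 3 without vehicle library 1 or gefitinib library 2.

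**Figure D4:**
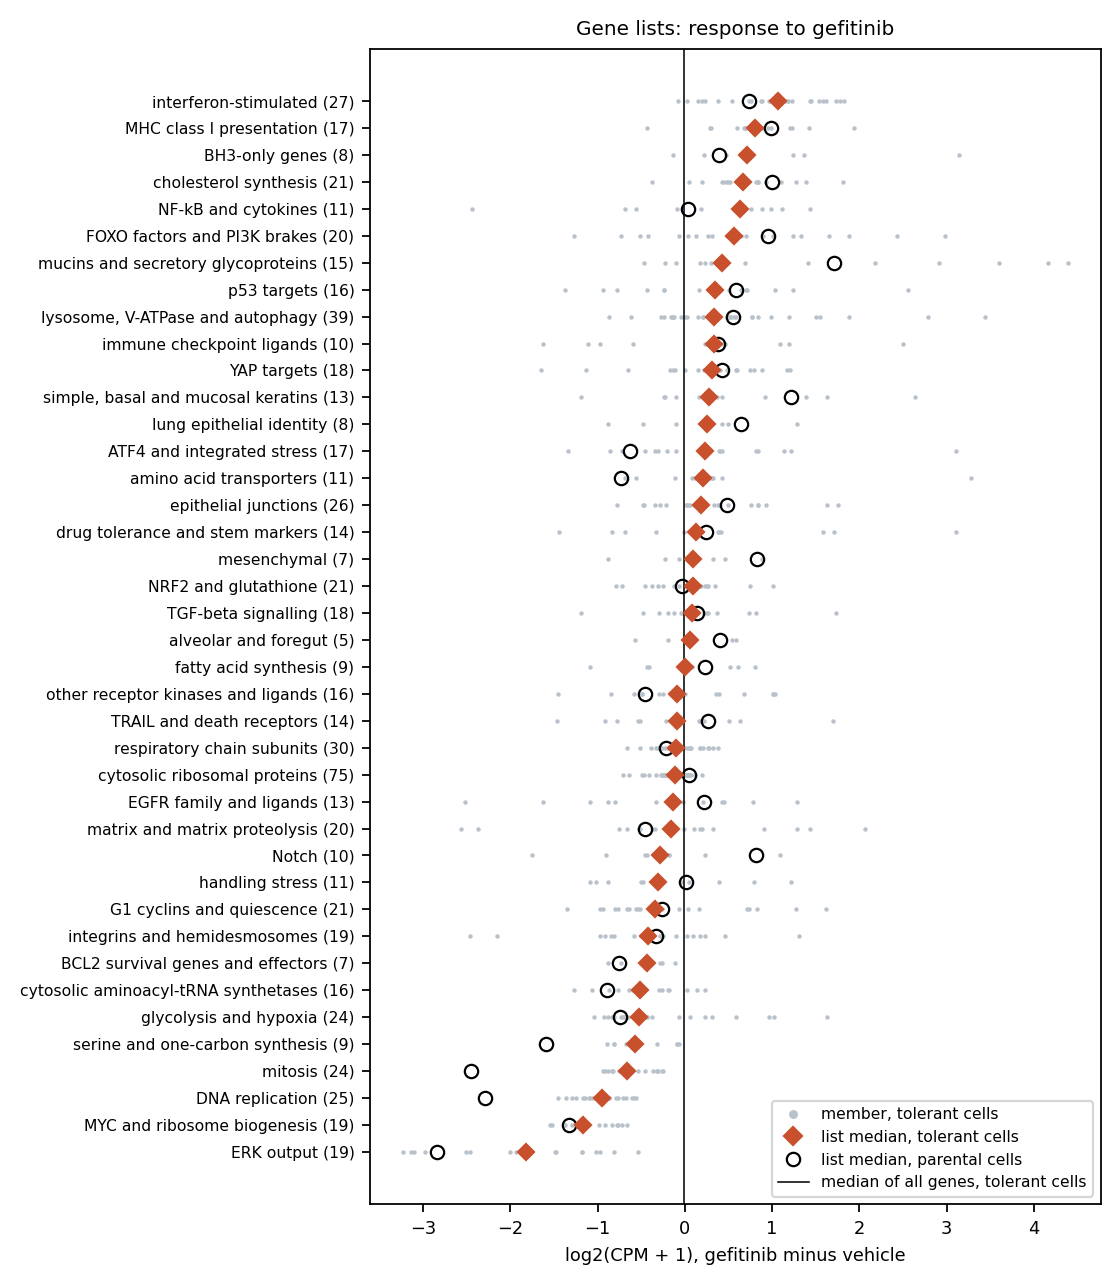
Log2 difference of CPM + 1 between gefitinib and vehicle for each counted member of the gene lists (grey points), with the list median in gefitinib-tolerant cells (diamond) and in parental cells (open circle). The medians of ERK output (-1.82 and -2.85), DNA replication (-0.95 and -2.29) and mitosis (-0.67 and -2.45) lie nearer 0 in tolerant cells, and that of ribosome biogenesis is -1.17 and -1.33.

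Some of the largest changes that held in every leave-one-out fit lay outside these pathways. TGM2, transglutaminase 2, which crosslinks proteins, fell from 1152 and 948 CPM to 193 and 117 CPM (-2.79 ± 0.33, adjusted p = 0.000154). HMGA2, a chromatin protein of fetal and tumour cells, fell from 265 and 263 CPM to 42.3 and 24.9 CPM (-2.98 ± 0.40, adjusted p = 0.000293). TNS4, a focal adhesion adaptor, fell from 69.5 and 54 CPM to 8.6 and 9.04 CPM (-2.67 ± 0.38, adjusted p = 0.000399). In these 3 abundant genes the treated libraries lay far below both vehicle libraries, while groups did not overlap for 71.4% of all genes. CD44, the hyaluronan receptor, fell from 1666 and 1337 CPM to 636 and 473 CPM (-1.44 ± 0.22, adjusted p = 0.000601), and HAS3, a hyaluronan synthase, from 21.7 and 16.9 CPM to 3.44 and 2.42 CPM (-2.37 ± 0.26, adjusted p = 8.74e-05). COL13A1, a membrane collagen, fell from 16.9 and 10.6 CPM to 2.17 and 0.86 CPM (-2.57 ± 0.28, adjusted p = 7.43e-05), and NOG, the BMP antagonist noggin, from 32.9 and 34.9 CPM to 6.47 and 4.34 CPM (-2.47 ± 0.35, adjusted p = 0.000394). Among rises, ARID5B, a DNA-binding cofactor, went from 4.38 and 8.75 CPM to 46 and 69 CPM (2.99 ± 0.37, adjusted p = 0.000195), INHA, the inhibin alpha chain, from 0.54 and 1.14 CPM to 9.69 and 17.6 CPM (2.96 ± 0.38, adjusted p = 0.000248), and CLEC7A, a lectin receptor known from myeloid cells, from 0.15 and 1 CPM to 10.4 and 13.2 CPM (3.07 ± 0.48, adjusted p = 0.000608). MMP14, a membrane metalloprotease, rose from 47.6 and 39.5 CPM to 185 and 182 CPM (2.06 ± 0.32, adjusted p = 0.000647), and TIMP2, its binding partner, from 189 and 220.4 CPM to 429.8 and 579 CPM (1.29 ± 0.23, adjusted p = 0.00133).

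Set against parental cells as a whole, the tolerant response was smaller far more often than larger where a difference was called. Of the 264 genes with a called difference of responses, 218 changed less in tolerant cells and 46 changed more. For 140 the parental gene fell and the tolerant value was higher, and for 117 the parental gene rose and the tolerant value was lower. Parental gefitinib calls covered 6535 of the 14149 genes (46.2%), and 3250 genes were called in the same direction in both populations, which is 75.4% of the tolerant and 49.7% of the parental calls. A further 27 genes were called in opposite directions, and 1035 were called in tolerant cells and not in parental cells, which by itself does not show that their responses differ. Across the 14149 genes, which share libraries and are not independent, the Pearson correlation of the 2 responses was 0.79.

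Several of the largest differences were genes that rose in parental cells and stayed level in tolerant cells. KITLG, the ligand of the receptor KIT, was at 23 and 27 CPM with vehicle and 18.6 and 26.4 CPM with gefitinib in tolerant cells, and at 3.24 and 5.62 CPM and 58.1 and 40.9 CPM in parental cells (-3.39 ± 0.61, adjusted p = 0.00974). EFEMP1, a matrix glycoprotein, was at 17 and 23.5 CPM and 17.3 and 16.4 CPM in tolerant cells, and at 7.34 and 6.74 CPM and 79.8 and 58.2 CPM in parental cells (-3.34 ± 0.36, adjusted p = 0.000635). STOM, a membrane scaffold protein, was at 6.34 and 3.86 CPM and 5.23 and 6.74 CPM in tolerant cells, and at 1.52 and 1.04 CPM and 22.3 and 16.1 CPM in parental cells (-2.92 ± 0.38, adjusted p = 0.00143). With vehicle, each of these 3 genes was higher in both tolerant libraries than in either parental library. In the other direction, CDH5, a cadherin best known from endothelium, rose in tolerant cells from 8.34 and 11.8 CPM to 32.6 and 26.8 CPM and fell in parental cells from 14.6 and 14.9 CPM to 3.47 and 3.24 CPM (3.34 ± 0.50, adjusted p = 0.00322). IL1RL1, the receptor of IL-33, fell in both, from 36.4 and 33.7 CPM to 8.05 and 3.89 CPM in tolerant cells and from 92.8 and 78.2 CPM to 1.06 and 0.82 CPM in parental cells (3.04 ± 0.37, adjusted p = 0.00129). Differences of EFEMP1, STOM, CDH5 and IL1RL1 held in all 8 leave-one-out fits, and that of KITLG was lost without parental library 1 of either treatment (adjusted p up to 0.0561). The call of CDH5 was lost without vehicle library 1 (adjusted p up to 0.0939).

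Part of the Notch pathway genes differed in response between the populations. In parental cells 5 of 10 counted genes rose and 0 fell, with a median of 0.81, where 3257 of all 14149 genes rose and 3278 fell. In tolerant cells 0 rose and 2 fell, with a median of -0.29, against 15.8% higher and 14.7% lower over all genes, so the tolerant count of falls is near that share. The difference of responses was called for 4 of the 10, against 1.87% of all genes. NRARP, a feedback inhibitor induced by Notch, was at 15 and 10.7 CPM and 8.05 and 4.95 CPM in tolerant cells (-0.90 ± 0.28, adjusted p = 0.0245) and at 13.7 and 19.2 CPM and 38.6 and 45 CPM in parental cells, a difference of -2.21 ± 0.39, adjusted p = 0.00925. JAG1, a Notch ligand, fell in tolerant cells from 63.5 and 41.6 CPM to 18.7 and 11.4 CPM (-1.75 ± 0.36, adjusted p = 0.00318). The differences of NOTCH1 (-1.39 ± 0.34, adjusted p = 0.0471), NOTCH2 (-1.0 ± 0.24, adjusted p = 0.0461) and JAG2 (-1.10 ± 0.27, adjusted p = 0.0478) passed in 0, 0 and 1 of 8 leave-one-out fits, and that of NRARP in 6. EGFR showed the same kind of contrast: it fell in tolerant cells and was at 658 and 554 CPM and 1013 and 748 CPM in parental cells (0.53 ± 0.24), and the difference (-1.41 ± 0.35, adjusted p = 0.0478) passed in 0 of 8 leave-one-out fits. The calls of NRARP and JAG1 were lost without vehicle library 1 or gefitinib library 2 (adjusted p up to 0.275 and 0.0657). In a fit of the compared libraries alone, NRARP also missed the threshold (adjusted p up to 0.0571).

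**Figure D5:**
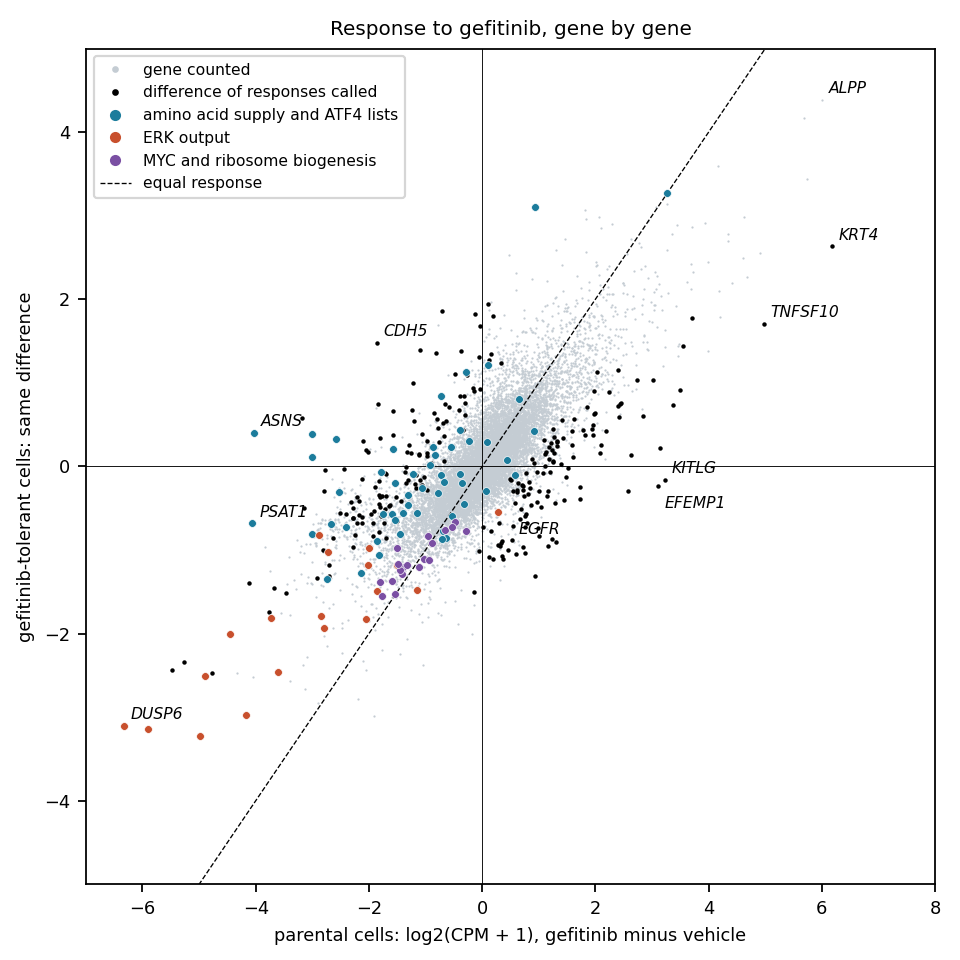
Log2 response to gefitinib in parental cells (x axis) and in gefitinib-tolerant cells (y axis) for each of the 14149 counted genes, with the 264 genes whose responses differed in black and the ERK output, ribosome biogenesis and amino acid supply lists in colour whether or not they differed. Genes such as ASNS (-4.03 and 0.40) and EFEMP1 (3.11 and -0.23) lie near 0 on the y axis and far from 0 on the x axis.

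The response was also set against that of the WZ4002-tolerant population to WZ4002, where population and inhibitor differ together. By limma, 0 of 14149 genes differed (0.0%), and 0 by limma-voom, with 260 at an unadjusted p under 0.05 and a smallest adjusted p of 0.9998. The 95% interval of the difference excluded a size of 1 log2 unit for 79.2% of genes, so that for the others a difference of 2-fold could not be set aside at this precision. List medians were close: ERK output -1.82 against -1.40, interferon-stimulated genes 1.06 against 0.72, MHC class I genes 0.80 against 0.86, and ribosome biogenesis -1.17 against -1.19. ASNS, which separated tolerant from parental cells, changed by 0.40 ± 0.42 with gefitinib here and by 0.89 ± 0.42 with WZ4002 there. CDKN1A, among the largest of the differences that did not pass, changed by -0.94 ± 0.39 here and by 0.34 ± 0.39 there, and CYP26A1, a retinoic acid hydroxylase, by 2.57 ± 0.34 and 1.15 ± 0.34.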

How the data were processed

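Polyadenylated RNA of 22 PC9 libraries in 11 groups of 2 was sequenced with a directional kit, per the labels' protocols. The submitters' processing notes name STAR, HTSeq and hg19, with no versions. Whether counting used strand is not given in the sources used here, so a gene and its antisense partner may share reads. The deposited values are CPM, each gene's reads scaled by the authors to the library total and rounded to 2 decimals. The table lists 17165 genes, 15962 of them with a symbol, and holds 0 values equal to 0, so genes silent in any library were not analysed here. Low values fell on whole multiples of 1 read, which gave the read totals used as depth, and because these are CPM and not raw counts, tests were run on the log scale.

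The 15485 genes with CPM of at least 1 in 2 or more of the 22 libraries were fitted as log2(CPM + 1), pseudocount 1, with limma 3.58.1 in R 4.3.3 (11 group means, one spread pooled over groups, 11 residual degrees of freedom, moderated with a trend). Adjusted p is Benjamini-Hochberg over all genes tested, two-sided, with 0.05 as the threshold. Counts were taken over the 14149 genes with CPM of at least 1 in 2 of the 4 tolerant libraries. A gene under 1 CPM in both libraries of 1 treatment was counted only through the other treatment. For such genes, among them KRT4, ALPG, TNFSF10 and ATP6V1B1, the direction of change was set by this filter. An exact permutation test of 2 against 2 cannot go below p = 0.333 and was not used. On simulated data with 200 changed genes among 15485, run 5 times for the gefitinib-tolerant comparison, 81% of 2-fold and 98.8% of 4-fold changes were recovered and 3.71% of calls were wrong. Noise was normal, independent between libraries and of the fitted spread, and changes were set only in genes with a vehicle log2(CPM + 1) above 2. The recovery therefore does not cover lower genes, and the error rate does not cover unequal spreads or deviations shared by libraries. Genes were described from 43 lists (789 of 834 genes in the table, 24 matched through older symbols). The genes and lists were chosen with earlier results of these data known. Named genes were the 12 largest rises and 12 largest falls that held with each library left out, up to 4 genes of each list with the lowest p, the 5 largest differences of responses of each sign, and EGFR, DUSP6, BCL2L11 and MCL1. Other list members printed for their role were chosen after their values were seen, and 2 members are counted in their lists but not reported here. Alternatives were a pseudocount of 0.1, no filter, a filter on the 4 libraries, median-of-ratios scaling, the compared libraries alone, a replicate block, limma-voom on the recovered reads and leaving out each library. Promoters came from RefSeq (GRCh38.p14), which is not the build of the files, and were matched by symbol. Other motifs were searched in the same windows, with the share of promoters of counted genes in brackets. The ETS motif CCGGAAGT was in 0 of 11 ERK output promoters (9.15%), and the E2F motif TTTCCCGC in 8 of 22 replication promoters (2.66%). TTTGAA was in 13 of 19 mitosis promoters (9.48%), TCACGTGA in 5 of 27 lysosome promoters (1.98%) and CACCCCAC in 1 of 14 cholesterol promoters (2.47%).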

Additional observations from a re-analysis of the deposited data

Results flagged for a closer look

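For 51 genes that are listed or named, the response to gefitinib differed between tolerant and parental cells by the limma test of the difference itself, with 20 lower and 31 higher in tolerant cells. Values are the tolerant minus the parental log2 response with its adjusted p. Lower in tolerant cells were KRT4 (-3.54, adjusted p = 0.0252), with responses of 2.63 in tolerant and 6.18 in parental cells, and KITLG (-3.39, adjusted p = 0.00974), with -0.16 in tolerant and 3.23 in parental cells. EFEMP1 (-3.34, adjusted p = 0.000635) and STOM (-2.92, adjusted p = 0.00143) had the same pattern, at -0.23 in tolerant and 3.11 in parental cells and at 0.22 in tolerant and 3.14 in parental cells, respectively. Also lower were TNFSF10, which encodes TRAIL (-3.27, adjusted p = 0.00501), and the Notch genes NRARP (-2.21, adjusted p = 0.00925), NOTCH1 (-1.39, adjusted p = 0.0471), NOTCH2 (-1.0, adjusted p = 0.0461) and JAG2 (-1.10, adjusted p = 0.0478). Receptors with a lower response were FGFR3 (-1.98, adjusted p = 0.0322), EGFR (-1.41, adjusted p = 0.0478) and TGFBR2 (-1.31, adjusted p = 0.0101). Further keratin and junction genes were KRT6A (-1.97, adjusted p = 0.00404), KRT5 (-1.92, adjusted p = 0.046), KRT8 (-0.94, adjusted p = 0.0395) and DSP (-1.49, adjusted p = 0.00573). The others in this direction were NT5E (-1.69, adjusted p = 0.0278), HK2 (-1.64, adjusted p = 0.0252), CDK6 (-1.25, adjusted p = 0.01) and MCL1 (-1.01, adjusted p = 0.01).

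Higher in tolerant cells were the ATF4 and amino acid supply genes ASNS (4.43, adjusted p = 0.00165), CHAC1 (3.40, adjusted p = 0.00322), PSAT1 (3.38, adjusted p = 0.00138), SLC7A5 (3.13, adjusted p = 0.00571), SLC1A4 (2.91, adjusted p = 0.000635), SESN2 (2.23, adjusted p = 0.0156), MTHFD2 (2.19, adjusted p = 0.00386), SLC7A1 (1.99, adjusted p = 0.00483), SLC3A2 (1.78, adjusted p = 0.0222), PHGDH (1.72, adjusted p = 0.0208), IARS1 (1.19, adjusted p = 0.00757), PSPH (1.01, adjusted p = 0.0101), YARS1 (0.84, adjusted p = 0.0291), ATF4 (0.78, adjusted p = 0.0398) and LARS1 (0.60, adjusted p = 0.0494). ADM2, adrenomedullin 2, a hormone gene, gave 3.77, adjusted p = 0.00945, with 0.59 in tolerant and -3.19 in parental cells. CDH5 (3.34, adjusted p = 0.00322) stood at 1.48 in tolerant and -1.85 in parental cells, so it moved in opposite directions. ERK output genes in this direction were DUSP6 (3.22, adjusted p = 0.0101), ETV5 (2.76, adjusted p = 0.0155), DUSP4 (2.46, adjusted p = 0.011), ETV4 (2.38, adjusted p = 0.01) and IER3 (2.07, adjusted p = 0.0168). Replication genes were CDC6 (2.22, adjusted p = 0.0278), GINS4 (1.82, adjusted p = 0.0213), RFC4 (1.41, adjusted p = 0.0357) and MCM7 (1.26, adjusted p = 0.0444). IL1RL1 (3.04, adjusted p = 0.00129) and ITGA6 (2.30, adjusted p = 0.0256) fell less in tolerant cells, at -2.44 in tolerant and -5.48 in parental cells and at -2.47 in tolerant and -4.77 in parental cells. The others were LOXL2 (2.18, adjusted p = 0.0498), ITGB5 (1.59, adjusted p = 0.00775) and CDKN2A (1.12, adjusted p = 0.0255).

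Of the 51 differences, 16 passed in all 8 leave-one-out fits and 12 in 1 or 0 of them, the latter being FGFR3, KRT5, EGFR, NOTCH1, JAG2, NOTCH2, KRT8, LARS1, ATF4, YARS1, CDKN2A and LOXL2. By limma-voom 17 missed the threshold, namely KRT4 (0.713), TNFSF10 (0.211), FGFR3 (0.287), KRT5 (0.0641), EGFR (0.059), NOTCH1 (0.0785), JAG2 (0.0641), NOTCH2 (0.0597), LARS1 (0.0706), ATF4 (0.0563), MCM7 (0.0641), RFC4 (0.0641), LOXL2 (0.0597), CDC6 (0.0682), SESN2 (0.0686), DUSP6 (0.0759) and ADM2 (0.0701), where values are adjusted p. With the replicate block 9 missed it, namely FGFR3 (0.0621), EGFR (0.0661), JAG2 (0.0799), NOTCH2 (0.0689), KRT8 (0.0669), LARS1 (0.0566), ATF4 (0.056), PHGDH (0.0547) and LOXL2 (0.066).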

How the results depend on the processing

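The number of genes called in the tolerant response stayed between 3158 (the compared libraries alone) and 4779 (replicate block) over the alternatives that kept all libraries, with 4185 at a pseudocount of 0.1, 4133 without the filter, 4407 with the 4-library filter, 4359 with median-of-ratios scaling and 4175 by limma-voom. Leaving out a library gave 963 to 4052 calls, lowest without gefitinib library 2 (963) and vehicle library 1 (971). The difference from parental cells was less settled: 264 genes became 625 with the compared libraries alone, 417 with the replicate block and 163 by limma-voom, 218 to 253 under the other settings, and 70 to 220 with a library left out, lowest without parental vehicle library 1 or parental gefitinib library 1. The cause of these shifts was not tested. The difference from WZ4002-tolerant cells was 0 under all 15 alternatives. Same-numbered tolerant libraries deviated together from their group means (Pearson r 0.63 over 15485 genes, 0.36 in parental and -0.05 in WZ4002-tolerant cells). The labels do not say what same-numbered libraries share, and with 2 pairs the source of the shared deviation was not tested. The main test did not use the pairing, and the replicate block gave 4779 calls in place of 4312. Of 189 named genes, the block moved 10 past the threshold and 3 below it, the compared libraries alone 9 and 11, and limma-voom 3 and 4, and no direction reversed. A quasi-likelihood test on counts was planned and not run, since reads could only be recovered from rounded CPM.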

Other observations

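Further gene groups are given with single members, and all counts here stand beside 15.8% higher and 14.7% lower over all genes. List medians were 0.31 for YAP targets, 0.08 for TGF-beta genes, 0.63 for NF-kB and cytokine genes and 0.34 for p53 targets. They were 0.09 for NRF2 and glutathione genes, 0.13 for drug tolerance genes and -0.30 for handling stress genes, against -0.01 for all genes. Of 18 YAP targets, which report on cell density and tension, 6 rose and 2 fell, with 2 and 1 without vehicle library 1 or gefitinib library 2. AJUBA, a LIM protein of junctions, rose from 30.4 and 29.4 CPM to 65.9 and 71.7 CPM (1.17 ± 0.23, adjusted p = 0.00226), and the kinase gene LATS2 from 12.8 and 12.6 CPM to 28.3 and 20.6 CPM (0.88 ± 0.18, adjusted p = 0.00312), while FJX1 fell from 28.2 and 19.5 CPM to 9.19 and 5 CPM (-1.65 ± 0.28, adjusted p = 0.000967). The classic targets CCN1 (0.22 ± 0.39, adjusted p = 0.7) and CCN2 (-0.12 ± 0.40, adjusted p = 0.851) did not pass. Of 18 TGF-beta genes, 2 rose and 1 fell: ID3, an inhibitor of bHLH factors, rose from 7.59 and 7.77 CPM to 26.7 and 29 CPM (1.73 ± 0.34, adjusted p = 0.00245), and its relative ID1 fell from 11.1 and 16.1 CPM to 4.7 and 6.01 CPM (-1.19 ± 0.32, adjusted p = 0.0133). TGFB2 rose as well (0.73 ± 0.26, adjusted p = 0.0457). Of 11 NF-kB and cytokine genes, 3 rose and 1 fell (0 rose without vehicle library 1), with ICAM1, an adhesion molecule for leukocytes, at 75.2 and 70.8 CPM with vehicle and 202 and 194 CPM with gefitinib (1.43 ± 0.37, adjusted p = 0.0106). The call of ID1 was lost without vehicle library 2, gefitinib library 1 or gefitinib library 2 (adjusted p up to 0.0916). The call of TGFB2 was lost without vehicle library 1, gefitinib library 1 or gefitinib library 2 (adjusted p up to 0.313). The call of ICAM1 was lost without vehicle library 1 or gefitinib library 2 (adjusted p up to 0.0752). In a fit without the filter on low values, a fit with median-of-ratios scaling or a fit with the replicate block, TGFB2 also missed the threshold (adjusted p up to 0.0654).

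Among 16 p53 targets 5 rose and 2 fell, with 1 and 0 without vehicle library 1 or gefitinib library 2, and TP53INP1, which promotes autophagy and death, rose most, from 0.42 and 2.67 CPM to 8.73 and 17.5 CPM (2.55 ± 0.47, adjusted p = 0.0015). Of 21 NRF2 and glutathione genes 2 rose and 0 fell, namely GPX4, which removes lipid peroxides, from 94 and 102 CPM to 156 and 175 CPM (0.75 ± 0.15, adjusted p = 0.00213), and HMOX1, heme oxygenase 1, from 9.56 and 6.98 CPM to 17.4 and 17.6 CPM (1.01 ± 0.26, adjusted p = 0.00926). Of 14 genes linked to drug tolerance and stemness 3 rose and 1 fell, with 1 and 1 without vehicle library 1 or gefitinib library 2: IGFBP3, a binder of insulin-like growth factors, rose from 641 and 866 CPM to 2165 and 2755 CPM (1.71 ± 0.31, adjusted p = 0.00133), IGFBP5 from 7.41 and 39.3 CPM to 79.6 and 310.0 CPM (3.10 ± 0.70, adjusted p = 0.005) and ALDH3A1 from 39.6 and 70.5 CPM to 153 and 169 CPM (1.59 ± 0.43, adjusted p = 0.0133). The histone demethylase KDM5A, tied to drug-tolerant states, did not pass (0.18 ± 0.14, adjusted p = 0.342). Of 11 heat shock and immediate early genes, known to respond to cell handling, 1 rose and 4 fell (2 fell without vehicle library 1, 1 without gefitinib library 2), with HSPH1, a heat shock chaperone, at 327 and 292 CPM and 179 and 155 CPM (-0.89 ± 0.16, adjusted p = 0.00137), and HSPA1A and HSPA1B did not pass. Fatty acid synthesis genes gave 1 higher and 1 lower of 9, alveolar and foregut genes 1 and 1 of 5, and matrix genes 3 and 2 of 20. The calls of IGFBP5 and ALDH3A1 were lost without vehicle library 1 or gefitinib library 2 (adjusted p up to 0.113 and 0.177). The call of HMOX1 was lost without vehicle library 2 or gefitinib library 2 (adjusted p up to 0.0761).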
